A study of Homo sapiens with 9 samples.

Results

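Eph receptors and ephrins were measured in MIA PaCa-2, an established human pancreatic cancer cell line, after 24 h with an ERK inhibitor or a TBK1–IKKε inhibitor. The description covers 10 genes, picked by gene name and with their behaviour in these libraries already known: the receptors EPHA2, EPHA4, EPHB2, EPHB3, EPHB4 and EPHB6 and the ephrins EFNA1, EFNA5, EFNB1 and EFNB2. The count table holds 58735 genes, of which 22 are Eph or ephrin genes (14 receptors and 8 ephrins). Because the values in these same groups chose the 10 genes, their levels and differences are given as a description, without a test.

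RNA-Seq was done on 9 libraries of MIA PaCa-2 cells labelled wild type, 3 per condition. Cells received 1 μM SCH772984, which inhibits ERK, 1 μM compound 1, which the study uses against TBK1 and IKKε, or 0.1% DMSO, the solvent control. All cells came from 1 line grown in the same serum-containing medium, and the labels do not say whether the replicates were separate cultures, so every error and p value measures the spread between these libraries, which may be technical. The comparisons address which of these RNAs differ after each inhibitor at this dose and time. In the study, the same SCH772984 treatment also lowered IKKε protein and, less strongly, TBK1 protein in these cells. A difference with SCH772984 therefore cannot be assigned to ERK alone.

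Eph receptors are a large family of receptor tyrosine kinases that are activated by ephrins on neighbouring cells. EPHA receptors mostly bind ephrin-A ligands, which are held in the membrane by a lipid anchor, and EPHB receptors mostly bind ephrin-B ligands, which span it. EPHA4 binds ligands of both classes, and EPHB6 lacks kinase activity. Signals pass into both the receptor cell and the ligand cell and act on adhesion, cell shape and migration through SRC family kinases and adaptor proteins. EPHA2 is often abundant in epithelial tumors, and ephrin-A1 is its best known ligand.

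Library totals were 9464432 to 10286223 counts with DMSO, 9652741 to 9840769 with compound 1 and 11056977 to 13887859 with SCH772984. Compound 1 replicate 1 stood apart from the other libraries of its group: its gene counts differed from those of replicates 2 and 3 with a chi-square of 10.1 and 7.61 for each degree of freedom, where replicates 2 and 3 gave 2.66 between them. SCH772984 replicate 3, the deepest library, gave 6.40 and 4.94 against the others of its group, which gave 4.03, and pairs of DMSO libraries gave 2.34 to 3.15. The main values with compound 1 are also given without its replicate 1. Levels are in CPM, read counts scaled to library size with TMM factors. The duct markers KRT8, KRT18 and KRT19 were present, whereas EPCAM had 0 counts in every library and CDH1 had 0 in the DMSO libraries. All 4 acinar markers were at 0 throughout. The summed level of the 6 epithelial and duct markers was 3587 to 3855 CPM with DMSO, 3091 to 3858 with compound 1 and 1182 to 1332 with SCH772984. KRT8 (mean 2488 CPM with DMSO and 771 with SCH772984), KRT18 (879 and 167) and SOX9 (126 and 55.8) were lower in this sum, KRT19 overlapped (252 and 272), and CDH1 had 4 to 5 counts per library with SCH772984. The 4 fibroblast markers, of which nearly all signal was COL1A2, summed to 457 to 506, 468 to 531 and 991 to 1120 CPM, respectively. At low levels, PDGFRB (mean 0.0729 CPM with DMSO and 6.27 with SCH772984) and COL1A1 (0.246 and 2.66) were also higher with SCH772984. Mesenchymal markers, of which nearly all signal was VIM, summed to 2439 to 2610, 2514 to 2904 and 1950 to 2313 CPM in the same order. VIM (mean 2473 CPM with DMSO and 2111 with SCH772984) and ZEB1 (35.9 and 23.7) were lower with SCH772984. FN1 was higher (1.11 and 3.71), and CDH2 did not exceed 1 count per library. Endothelial markers summed to 2.87 to 4.48, 6.23 to 6.77 and 0 to 0.535 CPM. With DMSO and compound 1 nearly all of this signal was CDH5. Immune markers did not exceed 3.06 CPM and endocrine markers 0.134 CPM. These shifts move with the differences described below, and their part in them was not tested. In bulk RNA, fewer cells that express a gene and less RNA per cell cannot be told apart.

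EPHA2 and EPHA4 stood at the center of the pattern, and the sequence just before each gene is shown because the RNAs of these receptors lay on opposite sides of DMSO after ERK inhibition. Both are RefSeq sequences on GRCh38.p14, read 5′ to 3′ on the gene's strand. EPHA2 (ENSG00000142627) lies on the minus strand at chr1:16124337-16156087, and its window is chr1:16156088-16156319. EPHA4 (ENSG00000116106) lies on the minus strand at chr2:221418027-221574202, and its window is chr2:221574203-221574452. Both lie directly upstream of the annotated gene, and the bases of the EPHA2 window that fall inside it are left out. A further RefSeq start of EPHA4 lies 1898 bases inside the gene, and its window is not shown. That window is 78% G and C with 5 GC boxes, against 43.2% and 1 in the EPHA4 window shown. Capitals mark TGACGTCA, the CREB motif, and the GC box GGGCGG, which reads CCGCCC in EPHA4 because it lies on the opposite strand.
EPHA2: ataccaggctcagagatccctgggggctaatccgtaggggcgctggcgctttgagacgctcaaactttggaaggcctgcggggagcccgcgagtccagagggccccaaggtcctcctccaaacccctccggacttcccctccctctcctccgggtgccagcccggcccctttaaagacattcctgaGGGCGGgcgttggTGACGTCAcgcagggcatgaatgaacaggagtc
EPHA4: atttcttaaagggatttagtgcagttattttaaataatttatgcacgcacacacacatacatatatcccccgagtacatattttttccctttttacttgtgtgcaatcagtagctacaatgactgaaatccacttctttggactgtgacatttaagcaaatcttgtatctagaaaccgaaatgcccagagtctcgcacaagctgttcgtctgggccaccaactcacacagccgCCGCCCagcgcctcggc

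Motifs were searched on both strands in the 250 bases before the RefSeq start, which for all 10 genes gave 12 starts. The CREB motif was found only before EPHA2, at bases 51 to 44 before its start, and it occurs in 1.65% of 35116 promoter windows of the same length. The GC box was in 12 of 12 starts, against 42.6% of all windows. These starts are not independent: EPHA4 and EPHB2 each gave more than 1, and those of EPHB2 lie 1 base apart. The windows were 43.2% to 84.8% G and C, and windows of equal GC content were not compared. The AP-1 motif TGACTCA (4.20% of all windows), the ETS motif CCGGAA (14.5%), the E-box CACGTG (6.35%), the FOXO motif GTAAACA (2.98%) and the NF-kB motif of the immunoglobulin kappa enhancer (0.179%) were in 0 of the 12. These are matches of letters and say nothing about binding.

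EPHA2 had the highest level among all Eph receptors and ephrins in DMSO. Levels were compared between genes as CPM per kb of exon, using the deposited gene lengths. EPHA2 stood at 214.8 ± 6.77 CPM per kb with DMSO (SD, n = 3), which ranked 140th of 16028 protein-coding genes with a count. EPHB4, known for its role with ephrin-B2 in blood vessel formation, followed at 31.1 ± 1.26, and EPHA4 stood at 29.2 ± 0.684. The DMSO libraries of EPHB4 and EPHA4 overlapped on this scale, so their order was not resolved. EPHB2 followed at 2.55 ± 0.0714, EPHB3 at 0.379 and EPHB6 at 0.0473 CPM per kb. Among the ephrins described, EFNB1 was highest at 15.2 ± 1.32 CPM per kb, EFNA5 at 4.63 ± 0.212 and EFNA1 at 4.19 ± 0.700 overlapped, and EFNB2 was lowest at 1.36.

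With SCH772984 the order was different. EPHA4 was the most abundant receptor at 81.8 ± 3.59 CPM per kb, EPHB4 followed at 30.4 ± 1.51, and EPHA2 came next at 5.69 ± 0.341, with no overlap between neighbours. EFNA1 was the most abundant ephrin at 21.2 ± 2.78 CPM per kb. EFNA5 at 11.5 ± 0.848 and EFNB1 at 11.1 ± 0.666 overlapped.

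**Figure D1:**
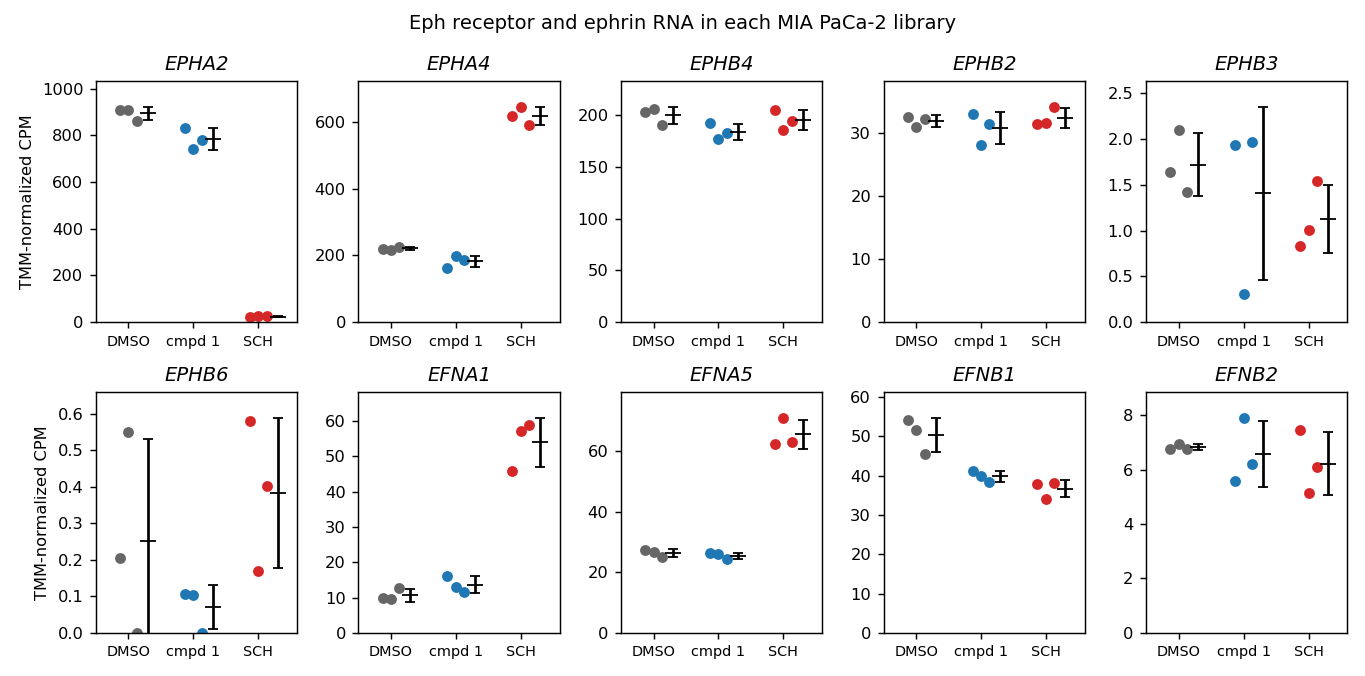
TMM-normalized CPM (y axis, linear, starting at 0) of the 10 Eph receptors and ephrins in each library, with DMSO in gray, compound 1 (cmpd 1) in blue and SCH772984 (SCH) in red, and the bar beside each group giving its mean and SD (n = 3, cut at 0). With SCH772984 the 3 EPHA2 libraries lie between 22.1 and 24.8 CPM, far below DMSO, while those of EPHA4, EFNA1 and EFNA5 lie above every DMSO library.

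EPHA2 RNA was 909.8, 909.8 and 861 CPM in the 3 DMSO libraries and 22.1, 24.2 and 24.8 CPM with SCH772984. The groups lay far apart, and the SCH772984 libraries varied little among themselves. The difference was a log2 fold change of -5.24 (SE 0.08), or 37.8-fold lower, and only 8 of the 13834 genes measured in this comparison had a lower value. In raw reads, this was 7878 to 8886 counts per DMSO library against 266 to 370 with SCH772984, so EPHA2 was still well counted after ERK inhibition.

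EPHA4, a receptor of axon guidance that also binds ephrin-B ligands, was on the opposite side. Its RNA was 219.9, 216 and 226 CPM with DMSO and 617, 645 and 591 CPM with SCH772984. Every SCH772984 library was above every DMSO library, at 2.79-fold higher (log2 1.48, SE 0.06). An antisense gene, AC079834.2, shares 4.67% of the EPHA4 exon bases, and the strand setting of the counting is not given in the sources used here, so reads there cannot be assigned to one strand.

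EPHB4, EPHB2 and EPHB3 overlapped between DMSO and SCH772984 with TMM scaling. EPHB4 was 203.8, 206 and 191 CPM with DMSO and 205.6, 186 and 194 CPM with SCH772984, and the libraries overlapped (log2 -0.04, SE 0.06). EPHB2, a receptor known from the intestinal crypt, was 32.6, 30.9 and 32.2 CPM with DMSO and 31.4, 31.6 and 34.1 CPM with SCH772984, and it overlapped too (log2 0.02, SE 0.09). Scaling by library size alone ended this overlap: EPHB4 was then 184.6 to 195 CPM with DMSO and 200.1 to 219.9 CPM with SCH772984 (log2 0.14), and EPHB2 was 29.3 to 31.2 and 33.6 to 36.7 CPM (log2 0.19). Whether EPHB4 and EPHB2 differed from DMSO therefore depends on the scaling, and so does the sign for EPHB4. EPHB3, a close relative of EPHB2, had 16, 19 and 13 counts with DMSO and 10, 12 and 23 with SCH772984, which is too few to resolve its log2 difference of -0.58 (SE 0.38). EPHB6 had 2, 5 and 0 counts with DMSO and 7, 2 and 6 with SCH772984, and it was the only one of the 10 genes that did not pass the filter on low counts. Its ratio was 1.54, with a 95% interval from 0.592 to 4.47 that covers counting error only.

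Among the ephrins, both A-type ligands were higher with SCH772984. EFNA1, the best known EPHA2 ligand, was 9.73, 9.48 and 12.7 CPM with DMSO and 45.9, 57.1 and 58.9 CPM with SCH772984. Its groups were far apart at 5.07-fold (log2 2.34, SE 0.12). EFNA5, a ligand of several EPHA receptors, was 27.3, 26.8 and 25.0 CPM with DMSO and 62.4, 71.0 and 63.0 CPM with SCH772984, without overlap and 2.47-fold higher (SE 0.09 on the log2 scale).

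Of the B-type ligands among the 10 genes, EFNB1 was lower and EFNB2 overlapped. EFNB1 was 54.1, 51.6 and 45.6 CPM with DMSO and 37.9, 34.2 and 38.1 CPM with SCH772984, 1.38-fold lower without overlap (log2 -0.46, SE 0.09). EFNB2, the usual partner of EPHB4, was 6.76, 6.95 and 6.78 CPM with DMSO and 7.46, 5.13 and 6.09 CPM with SCH772984, and these ranges overlapped (log2 -0.14, SE 0.19). The antisense gene AL138689.2 shares 26.2% of the EFNB2 exon bases.

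Of the 9 genes that passed the filter in SCH772984 against DMSO, 3 (EPHA4, EFNA1 and EFNA5) had all SCH772984 libraries above all DMSO libraries and 2 (EPHA2 and EFNB1) had all of them below, while 4 overlapped. With library size alone EPHB2 and EPHB4 joined the genes separated upward, which made 5. Over all 13834 genes measured, 38.0% were separated upward and 36.4% downward. The median log2 fold change was -0.04 for the 9 genes and 0.03 over all genes. Nothing is read from these counts, since the same comparison chose the genes.

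**Figure D2:**
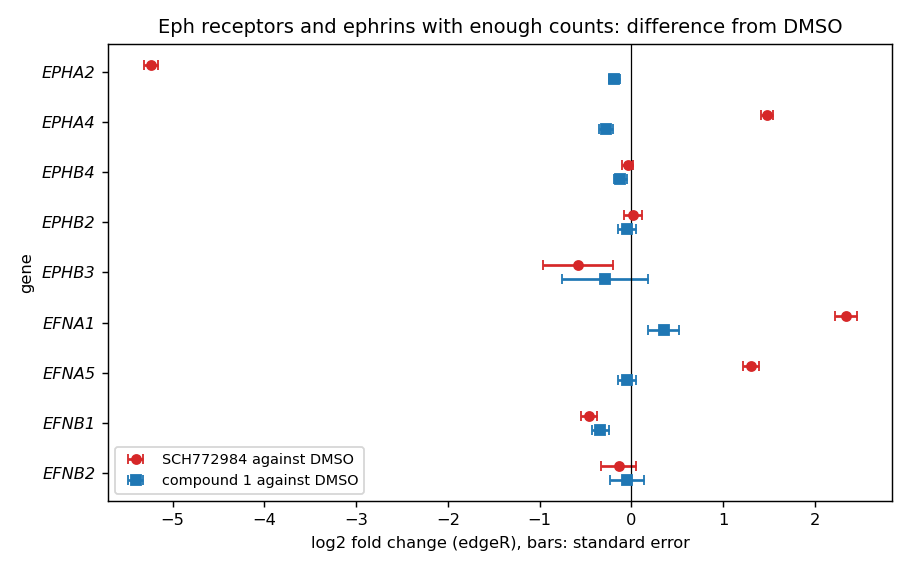
Log2 fold change against DMSO (x axis) of the 9 Eph receptors and ephrins with enough counts (y axis), with SCH772984 as red circles, compound 1 as blue squares and bars for the standard error of the edgeR fit. EPHA2 lies at -5.24 with SCH772984, EFNA1 at 2.34 and EPHA4 at 1.48, whereas the values with compound 1 lie between -0.34 and 0.36.

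With compound 1 the differences were small. EPHA2 was 832, 741 and 779.8 CPM, below every DMSO library, or 1.14-fold lower (log2 -0.19, SE 0.06). EPHA4 was 162, 197 and 186 CPM, also below every DMSO library, or 1.21-fold lower (log2 -0.28, SE 0.08). EPHA4 thus lay below DMSO with compound 1 and above it with SCH772984. EFNB1 was 41.3, 39.8 and 38.3 CPM, again below all DMSO libraries, or 1.26-fold lower (log2 -0.34, SE 0.09).

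The other genes overlapped with DMSO. EFNA1 was 16.2, 13.03 and 11.5 CPM with compound 1 (log2 0.36, SE 0.17), and the lowest of these lay inside the DMSO range of 9.48 to 12.7 CPM. EPHB4 was 193, 177 and 183 CPM (log2 -0.12, SE 0.07), EPHB2 was 33.0, 28.0 and 31.4 CPM (log2 -0.05, SE 0.10), and EFNA5 was 26.2, 25.9 and 24.4 CPM (log2 -0.05, SE 0.10). EFNB2 was 5.59, 7.92 and 6.23 CPM, on both sides of DMSO. EPHB3 had 18, 3 and 19 counts and EPHB6 had 1, 1 and 0.

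In compound 1 against DMSO, 3 of the 9 genes were separated downward and 0 upward, next to 10.6% and 10.3% of all 12849 genes measured, and again nothing is read from the count. The median log2 fold change was -0.12 for the 9 genes and 0.00 over all genes. Without compound 1 replicate 1, 4 of the 9 genes were separated downward, with EPHB4 added, next to 20.7% of all genes. Without DMSO replicate 3, 5 were separated downward (EPHB4 and EFNA5 added), next to 16.1%, and EFNA1 was separated upward, next to 15.3%. EFNA1 was also separated upward without compound 1 replicate 3, next to 14.9%. With all libraries, EPHB4 was separated downward with library size alone and with RLE factors. Leaving out compound 1 replicate 1 gave log2 values of -0.23 for EPHA2, -0.20 for EPHA4, -0.36 for EFNB1 and 0.21 for EFNA1. Both inhibitor comparisons use the same DMSO libraries, so their values are set side by side and not correlated.

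A direct comparison at the same dose and time does not use the DMSO libraries. SCH772984 against compound 1 gave 33.0-fold lower EPHA2 (log2 -5.05, SE 0.10), 3.40-fold higher EPHA4 (log2 1.77, SE 0.09), 3.98-fold higher EFNA1 (log2 1.99, SE 0.14) and 2.57-fold higher EFNA5 (log2 1.36, SE 0.10), with no overlap of libraries in these 4 genes. Without compound 1 replicate 1 the log2 values were -5.00, 1.69, 2.14 and 1.38. EFNB1 was also separated, although the difference was only -0.11 (SE 0.10) on the log2 scale and changed sign to 0.024 with library size alone, where the libraries overlapped, as they did with RLE factors. EPHB2 (0.07, SE 0.11), EPHB4 (0.09, SE 0.08), EPHB3 (-0.29, SE 0.48) and EFNB2 (-0.08, SE 0.21) overlapped, although EPHB2 and EPHB4 were separated upward with library size alone. Over all 13863 genes, 35.3% were separated upward and 34.1% downward.

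The makeup of the receptor RNA was computed as each gene's share of the CPM per kb summed over the 14 receptors. EPHA2 made up 76.6 ± 0.361% of it with DMSO, 76.4 ± 1.30% with compound 1 and 4.50 ± 0.326% with SCH772984 (SD, n = 3). EPHA4 made up 10.4 ± 0.523%, 9.79 ± 1.34% and 64.6 ± 1.49%, respectively. In compound 1 replicates 2 and 3 alone, EPHA2 made up 75.2% to 76.2% and EPHA4 10.01% to 11.0%. EPHB4, whose own level overlapped between DMSO and SCH772984, went from 11.1 ± 0.162% to 24.0 ± 1.39% as the total became smaller. That total was 281 ± 7.54 CPM per kb with DMSO, 247 ± 10.2 with compound 1 and 127 ± 2.78 with SCH772984. The EPHA receptors alone summed to 246 ± 6.22 with DMSO and 93.2 ± 3.58 with SCH772984, whereas the summed EPHB receptors were 34.1 ± 1.33 and 33.4 ± 1.504.

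In each library, the EPHA2 level was 7.51, 7.64 and 6.91 times that of EPHA4 with DMSO and 9.32, 6.84 and 7.61 times with compound 1. With SCH772984 the EPHA4 level was instead 15.4, 14.7 and 13.1 times that of EPHA2. The order of these receptors was thus opposite in all 3 libraries. The ratio of 9.32 belongs to compound 1 replicate 1.

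The ephrins summed to 42.9 ± 2.93 CPM per kb with DMSO, 39.4 ± 5.08 with compound 1 (35.8 to 37.2 without its replicate 1) and 73.8 ± 6.86 with SCH772984. Ephrin-A ligands went from 25.2 ± 1.60 with DMSO to 55.3 ± 6.30 with SCH772984, while ephrin-B ligands were 17.7 ± 1.39 and 18.5 ± 0.997. EFNB1 made up 35.4 ± 0.750% of ephrin RNA with DMSO and 15.1 ± 1.66% with SCH772984, and EFNA1 made up 9.85 ± 2.33% and 28.7 ± 1.89%.

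**Figure D3:**
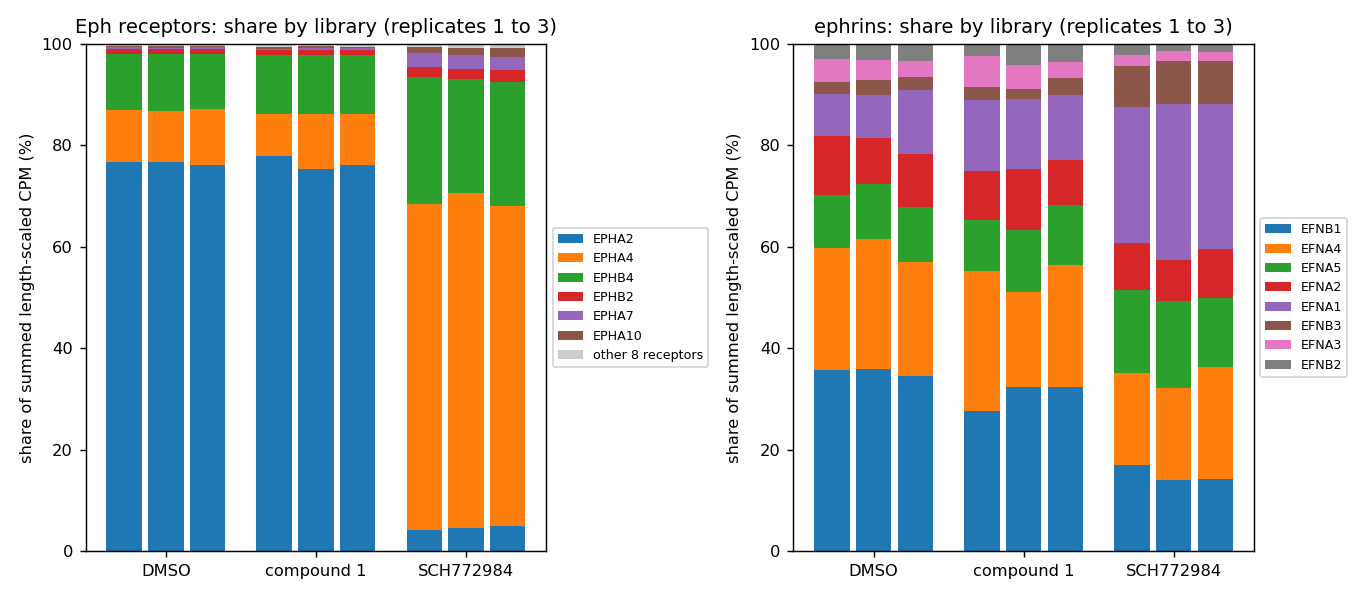
Share (y axis, percent) of each gene in the length-scaled CPM summed over the 14 Eph receptors (left) and the 8 ephrins (right), with 1 stacked bar per library and replicates 1 to 3 from left to right in each group. EPHA2 takes 76.6% of receptor RNA with DMSO and 4.50% with SCH772984, where EPHA4 takes 64.6%.

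The other 12 genes of the family are also given without a test. EFNA4, an ephrin-A ligand, stood at 10.3 ± 1.22 CPM per kb with DMSO, below EFNB1 and above the other ephrins, and made up 24.0% of ephrin RNA, and EFNA2 stood at 4.46 CPM per kb, near EFNA5 and EFNA1. EPHA7, an EPHA receptor of the nervous system, was 6.25, 5.73 and 6.23 CPM with DMSO and 27.0, 26.7 and 23.6 CPM with SCH772984, or 4.22-fold higher. EFNB3, a transmembrane ligand known from the nervous system, was 3.48, 4.08 and 3.28 CPM with DMSO and 17.8, 20.0 and 22.02 CPM with SCH772984, 2.46 higher on the log2 scale (SE 0.17). EPHA8 was lower, at 3.79, 3.42 and 3.39 CPM with DMSO and 1.00, 1.35 and 0.47 CPM with SCH772984 (log2 -1.95, SE 0.35). EPHA10, which lacks kinase activity, was 2.34-fold higher, EFNA4 had a log2 difference of 0.49 (SE 0.14) and EFNA2 one of 0.57 (SE 0.21). EFNA3 was -0.17 (SE 0.27), and a readthrough gene on the same strand, AL691442.1, shares 44.7% of EFNA3 exon bases and 15% of those of EFNA4.

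Some receptors were near or at 0 without ERK inhibition. EPHA3 had 0 counts in all DMSO and compound 1 libraries and 9, 13 and 11 with SCH772984, at least 7.92-fold higher than a floor of 3 counts over the DMSO group. EPHB1 had 0, 1 and 1 counts with DMSO, 1, 1 and 1 with compound 1 and 13, 15 and 14 with SCH772984, a ratio to DMSO of 15.1 with a 95% counting interval of 3.93 to 129. EPHA5 had 2 counts in all with DMSO and 11 with SCH772984, EPHA1 had 12 and 17, and EPHA6 had 0 in all 9 libraries. With compound 1, all 7 of the 12 genes that passed the filter overlapped with DMSO.

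**Figure D4:**
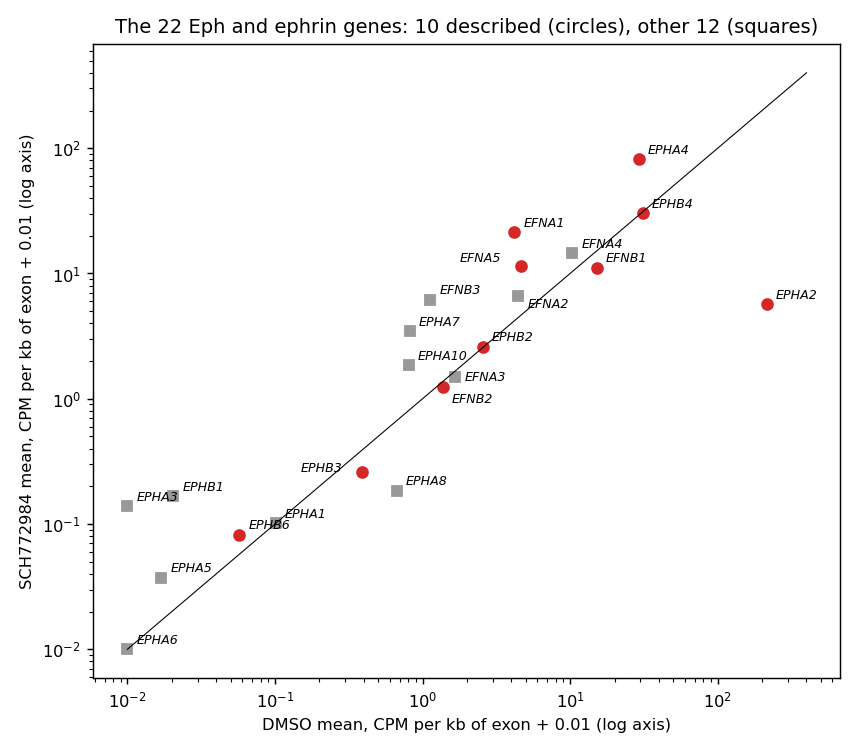
Mean CPM per kb of exon plus 0.01 with SCH772984 (y axis, log scale) against DMSO (x axis, log scale) for the 22 Eph and ephrin genes, with the 10 described in detail as red circles, the other 12 as gray squares and a line of equal level. EPHA2 lies far below the line, and EPHA4, EFNA1, EFNA5, EFNB3 and EPHA7 lie above it.

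Some genes of the family are close neighbours. EFNA4, EFNA3 and EFNA1 lie next to each other on chromosome 1, with gaps of 9.32 and 39.9 kb, and their log2 differences with SCH772984 were 0.49, -0.17 and 2.34, of which only that of EFNA3 came from overlapping libraries. EPHA8 and EPHB2 lie 107 kb apart on the same chromosome, with differences of -1.95 and 0.02.

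The RNAs most like EPHA2 over the 9 libraries, by Pearson r of log2 CPM among 10473 genes, were RNPS1 (r = 0.9994), HMGB2 (0.9993) and ETV5 (0.9992). For EPHA4 they were FGF2 (0.998), SATB1 (0.997) and ASXL1 (0.997). These are descriptions that rest mostly on the gap between SCH772984 and the other libraries: 3017 genes had an r above 0.9 with EPHA2 and 1695 with EPHA4.

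Genes that act downstream of Eph receptors were tested with edgeR and a Benjamini-Hochberg adjusted p over all genes. Their list was chosen with earlier results of these data known. With SCH772984, 40 of the 49 listed genes could be tested, of which 9 rose and 21 fell, next to 37.2% and 35.5% of all genes. The list's median log2 fold change was -0.36. Scaling by library size alone moved the median of all genes by 0.17 and the share of calls that were higher from 51.2% to 61.5%. For compound 1 against DMSO that share went from 56.8% to 77.3%.

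Among the kinases and phosphatases, 1 rose and 5 fell of 10, next to 37.2% and 35.5% of all genes. INPPL1, the lipid phosphatase SHIP2 that binds EPHA2, rose 2.15-fold (log2 1.10, SE 0.07, adjusted p = 1.47e-18). LYN, a SRC family kinase, fell to a level 2.65-fold lower (adjusted p = 2.41e-20), and PTPN11, the phosphatase SHP2, to one 2.11-fold lower (adjusted p = 2.63e-19).

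ARHGEF16, which binds EPHA2, was lower by a log2 fold change of -1.58 (SE 0.22, adjusted p = 2.53e-08). ITSN1, a scaffold protein of endocytosis, rose 1.57-fold (adjusted p = 1.14e-10). Of 13 adaptors, 2 rose and 8 fell, next to 37.2% and 35.5% of all genes. These included PXN, the focal adhesion adaptor paxillin, 3.43-fold lower (adjusted p = 1.03e-26) and PICK1, a PDZ protein, 1.52-fold higher (adjusted p = 0.00303). Of the 4 genes for cleavage of receptors and ligands, 3 rose and 0 fell, next to the same 37.2% and 35.5% of all genes. The γ-secretase subunit NCSTN rose 1.45-fold (adjusted p = 3.26e-10).

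With compound 1, 0 of the 39 signalling genes tested passed the adjusted threshold in edgeR, and 0 in DESeq2, while 0.490% of all genes passed it as higher and 0.374% as lower in edgeR. At an unadjusted p under 0.05, 1 of the 39 was higher and 6 were lower, next to 7.35% and 7.69% of all genes. Without compound 1 replicate 1, 5 passed the adjusted threshold, all lower: PXN, ABL1, VAV2, INPPL1 and SRC. In that fit 6.10% of all 13084 genes passed as lower and 3.46% as higher, more than with all libraries. In SCH772984 against compound 1, 7 rose and 18 fell of 40, next to 33.7% and 32.6% of all genes. INPPL1 (log2 1.28, adjusted p = 1.79e-10), ITSN1 (0.71), RASA1 (0.58) and NCSTN (0.57) led upward, and ARHGEF16 (-1.63), PXN (-1.62), LYN (-1.41) and NGEF (-0.92) downward.

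EPHA2 and EPHA4 belong to a 10-gene score of MAPK pathway activity, and the 8 other genes of this score were tested in the same way. This list too was chosen with earlier results of these data known, so its calls are a description and not independent evidence. With SCH772984 all 7 that could be tested fell, next to 35.5% of all genes. SPRY4, a feedback inhibitor of the pathway, went from 231 ± 5.21 to 2.00 ± 0.646 CPM (log2 -6.81, adjusted p = 6.44e-40), and the transcription factors ETV5 (-6.54) and ETV4 (-5.80) were also at a small part of their DMSO level. SPRY2 (-1.27), PHLDA1 (-0.89) and CCND1 (-0.70) fell as well. DUSP6, an ERK phosphatase, had 40, 25 and 51 counts with DMSO and 0, 1 and 0 with SCH772984, and DUSP4, not tested, had 4, 8 and 7 and 0, 2 and 0. EPHA2 was thus on the same side of DMSO as these genes, and EPHA4 on the other side. With compound 1, 0 of 7 passed the adjusted threshold, next to 0.490% of all genes as higher and 0.374% as lower (1 at an unadjusted p under 0.05, SPRY2 at a log2 of -0.23 and an adjusted p of 0.149), and 0 in DESeq2. Without compound 1 replicate 1, SPRY2 passed the adjusted threshold in edgeR at a log2 of -0.21 (adjusted p = 0.0284), next to 6.10% of all genes as lower.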

How the data were processed

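The authors deposited raw read counts per gene, whole numbers without normalization, together with gene length. Per the labels, reads were aligned to hg38 with HISAT2 2.0.5 and counted with featureCounts 1.5.0-p3, as the submitters' processing notes list them. The strand setting is not given in the sources used here. Gene coordinates and exon lengths of the 22 family genes matched GENCODE 29.

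Libraries were grouped by their labels. Each pair of groups was fitted on its own 6 libraries with edgeR 4.0.16 (quasi-likelihood test, robust, TMM, filterByExpr with minimum count 10 and minimum total 15) in R 4.3.3, and Benjamini-Hochberg adjustment ran over all genes tested. DESeq2 1.42.0 was an alternative. CPM per library used TMM factors over all 9 libraries and was divided by the deposited length for comparisons between genes. Scripts were tested on simulated data in which few genes changed, equally in both directions. That setting differs from the SCH772984 comparisons and does not test the choice of scaling.

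The 10 genes and all lists were chosen with earlier results of these data known. Named signalling genes were the 4 with the largest change in each direction among those that passed an adjusted p of 0.05, averaged at least 5 CPM and did not overlap between groups. The count for one group of the signalling list is not reported here. Genes most like EPHA2 or EPHA4 were the 3 with the highest r. Alternatives were other scalings, filters, thresholds, DESeq2, a replicate block and leaving out each library.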

Additional observations from a re-analysis of the deposited data

How the results depend on the processing

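The alternatives gave 216 values for counts of genes and 324 for log2 fold changes of single Eph receptors and ephrins. For the counts 202 stayed within 1.5 times the reported one. Of the fold changes, 14 had another sign than the reported value, 13 of them in genes whose libraries overlapped and 1, EFNB1, in a gene whose libraries did not. With at least 10 counts in every library, 4 MAPK output genes passed as lower with SCH772984 against DMSO and 4 against compound 1, because fewer were tested. With library size alone, 5 of the 9 genes were separated upward with SCH772984 against DMSO and 5 against compound 1, 1 was separated downward against compound 1 (also 1 with RLE factors), and EFNB1 in that comparison changed sign to 0.024. For compound 1 against DMSO an unadjusted p gave 1 signalling gene higher and 6 lower and 1 MAPK output gene lower. Leaving out each library in that comparison gave 0 to 5 signalling genes lower and 0 to 1 MAPK output genes lower, with the highest of both without compound 1 replicate 1. It gave 0 to 1 of the 9 genes separated upward, 1 without DMSO replicate 3 or compound 1 replicate 3, and 3 to 5 downward, 5 without DMSO replicate 3. EPHB3 with SCH772984 was -0.90 without SCH772984 replicate 3.

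No pairing by replicate number was seen: deviations of same-numbered libraries correlated at -0.079 to 0.107, and those of differently numbered ones at -0.101 to 0.149. With 3 libraries per group, this cannot exclude pairing. With the replicate block, 9 signalling genes rose and 21 fell with SCH772984 against DMSO, the same numbers as without it, and EPHA2 with compound 1 was at -0.19. Genes with few counts (EPHB3, EPHB6, EPHA3, EPHB1) are limited by depth.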
